A study of Mus musculus with 6 samples.

Results

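Keratins, claudins, cadherins and desmosome genes were described in thoracic mammary glands of transgenic mice with an excess of luteinizing hormone (LH), which the pituitary makes to drive the gonads. The members were all probe sets of the array whose platform annotation names a single gene with a symbol beginning Krt, Cldn, Cdh, Dsg, Dsc, Tjp or Pkp before a digit, together with Ocln, Dsp, Jup and Epcam, and without Cdh5. This rule gave 98 of 12422 probe sets, for 67 of 8251 genes. No measured value is part of the rule, but the members were chosen with earlier results of these data known. Both groups were virgin mice, aged 16 weeks, of an F1 cross of CF-1 and FVB, and the control mice were wild type. Each group had 9 mice, whose RNA was combined in 3 pools of 3, so that 6 Affymetrix arrays were compared. The promoter that drives the LH transgene, the number of founder lines and the ovarian hormone state of the mice are not stated in the labels used here.

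Keratins are the intermediate filament proteins of epithelia, and each filament needs a type I and a type II partner. In the mammary gland the inner luminal cells, which make milk, are known for the simple keratins Krt8, Krt18, Krt19 and Krt7, and the outer basal and myoepithelial cells for Krt5, Krt14 and Krt17. Claudins are the membrane proteins that seal tight junctions between cells, and in lactation this seal separates milk from tissue fluid. E-cadherin (Cdh1) and P-cadherin (Cdh3) join neighbouring luminal and basal cells. In desmosomes the cadherins Dsg and Dsc bind cells together, and plakoglobin (Jup), plakophilins (Pkp) and desmoplakin (Dsp) tie them to the keratin filaments.

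Signal is the intensity that the authors deposited for each probe set, on a linear scale on which the median of an array was between 540.6 and 583.45. A difference is that of the LH transgenic mean from the wild type mean of log2(signal + 80.0), which understates changes of dim probe sets. A probe set was called at an adjusted p under 0.05 in limma, with adjustment over the 7453 probe sets whose mean signal reached 336.0. Of these, 1586 (21.3%) were called, 781 higher (10.5%) and 805 lower (10.8%), and 3009 (40.4%) had no overlap between groups. Of the 98 member probe sets, 41 (35 genes) passed that filter and 57 did not. Of the 41, 9 were called higher and 3 lower, and the groups did not overlap for 17. The share called was 29.3% against 21.3% over all probe sets, and the share without overlap 41.5% against 40.4%. The median difference of the 41 was 0.22, against 0.02 over all probe sets tested. The calls fell on 9 genes. Krt19, Cldn3, Cldn7, Dsg2, Krt36 and Krt33b were higher in the LH transgenic glands and Krt7 and Cldn5 lower, whereas Krt17 had 1 probe set called higher and 1 called lower. Krt33b and the lower Krt17 probe set passed the filter only through the group in which they were high. Cldn7 and 1 probe set each of Krt19 and Cldn3 were below 0 on the bacterial control scale described next. A shift common to an array cannot be told from these scaled signals. Scaled instead to 9 bacterial transcripts added as hybridisation controls, the median of all probe sets tested was -0.62, 2 member probe sets were called higher and 18 lower. With a covariate for the muscle marker signal of each array 3 were called higher.

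**Figure D1:**
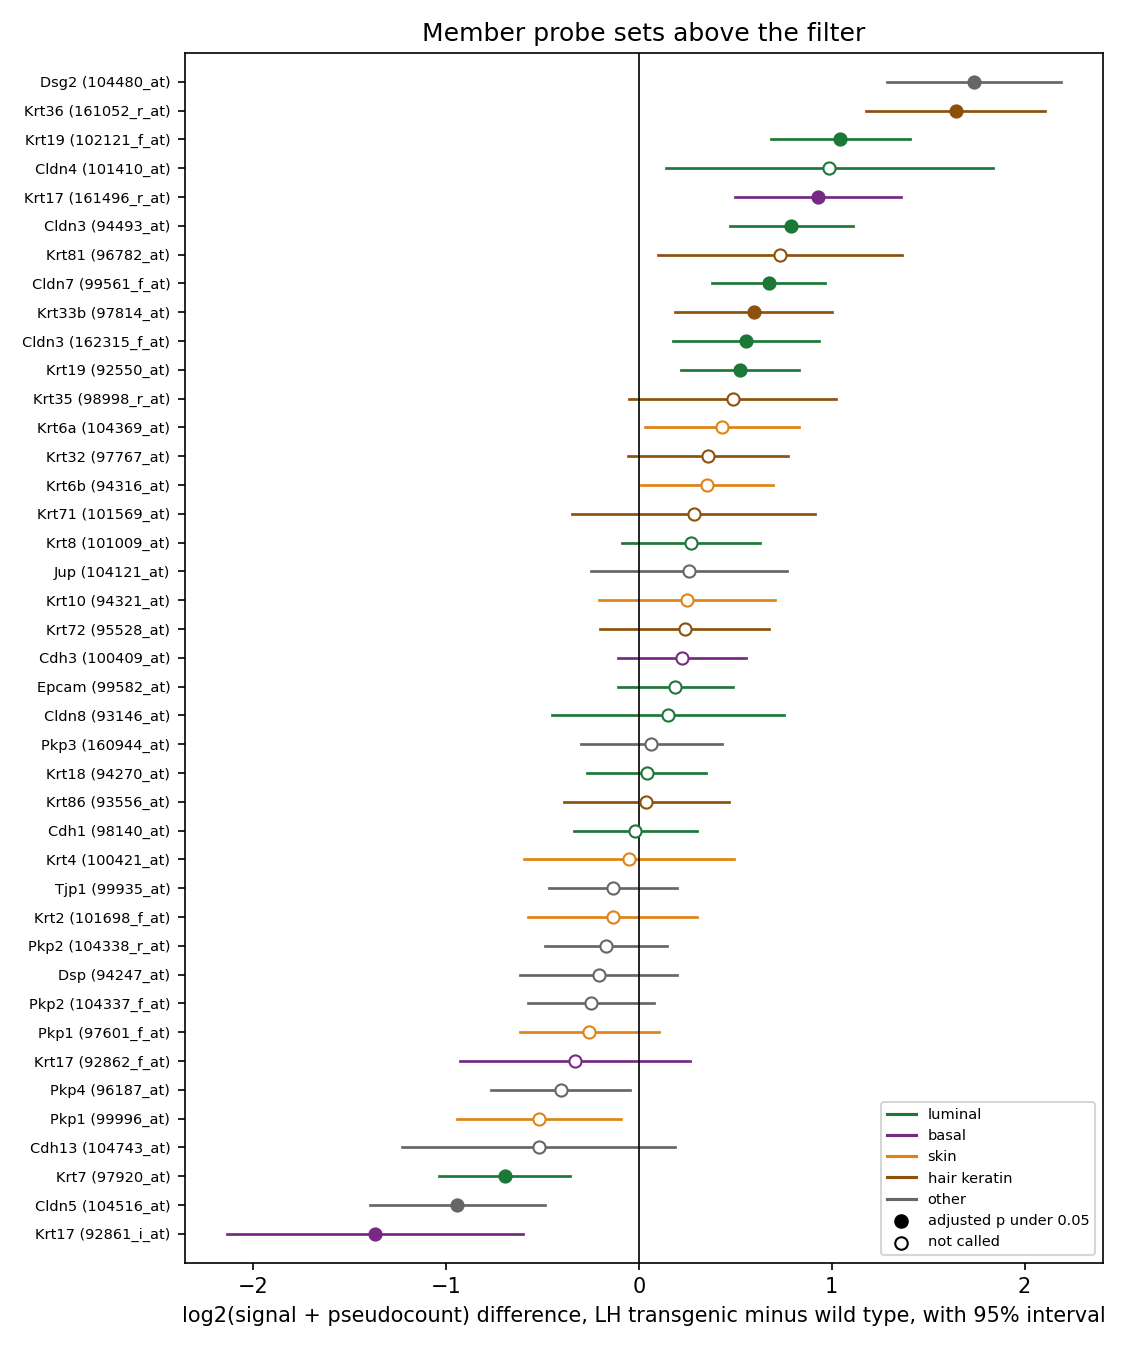
Differences in log2(signal + 80.0), LH transgenic minus wild type, with their 95% intervals for the 41 member probe sets above the filter, coloured by class, with filled points for an adjusted p under 0.05 in limma. Dsg2 and Krt36 lie farthest to the right at 1.74 and 1.64, and Krt7, Cldn5 and a Krt17 probe set are the filled points on the left.

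Among the luminal keratins, Krt19 was higher and Krt7 lower in the LH transgenic glands, while no change of Krt18 or Krt8 was called on the deposited scale. Krt18 is the type I keratin found in all luminal cells. The brighter of its probe sets had signals of 13941.0, 11965.7 and 13716.1 in wild type pools 1 to 3 and of 14927.6, 14593.4 and 11428.4 in LH transgenic pools 1 to 3. The groups overlapped, with the lowest signal in LH transgenic pool 3. The log2 difference was 0.04, with a 95% interval from -0.27 to 0.35 (adjusted p 0.87, limma). On the bacterial control scale this Krt18 probe set was called lower (-0.65). The type II partner of Krt18 is Krt8, the next gene on the chromosome. Krt8 had 11727.3, 11979.1 and 14712.2 in wild type pools and 16006.7, 18181.6 and 12538.9 in LH transgenic pools. These overlapped too, and the difference was 0.27 with an interval from -0.09 to 0.63 (adjusted p 0.261, limma). Neither interval leaves 0 out, and neither shows that the level was the same. A second Krt18 probe set, under the filter, had 37.6, 37.7 and 26.2 in wild type and 138.6, 57.9 and 66.6 in LH transgenic pools, without overlap. All but the 138.6 lie under 80.0. Without the filter the difference of that probe set was 0.53 and was not called (adjusted p 0.139, limma).

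Krt19, a small type I keratin of simple epithelia, had signals of 15490.7, 16680.9 and 16747.5 in wild type pools and of 24975.4, 26615.5 and 19430.6 in LH transgenic pools for the brighter of its probe sets. Every LH transgenic pool lay above every wild type pool, and pool 3 was the lowest of its group. The mean rose from 16306 ± 707 to 23674 ± 3765 (SD, n = 3 pools each), a log2 difference of 0.52 (SE 0.14, adjusted p 0.0237, limma), which turned to -0.16 on the bacterial control scale. It was not called in 8 of 17 other settings, among them that scale and leaving out wild type pool 1, 2 or 3 or LH transgenic pool 1 or 2. The dimmer probe set of Krt19, of the f kind, had 831.4, 1038.7 and 914.6 in wild type and 2075.6, 2286.2 and 1667.6 in LH transgenic pools. It was separated more widely, by 1.05 (SE 0.16, adjusted p 0.00236, limma), and lost its call only on the bacterial control scale (0.40, adjusted p 0.183). The suffix f marks probes that can match related genes of a family.

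Krt7, a type II keratin of glandular and ductal epithelia, ran the other way. Its signals were 1744.2, 1667.1 and 2075.9 in wild type and 1177.2, 1170.5 and 951.9 in LH transgenic pools, without overlap. The mean fell from 1829 ± 217 to 1100 ± 128, a log2 difference of -0.69 (SE 0.15, adjusted p 0.0113, limma). It was below 0 in every one of 17 other settings, from -1.34 on the bacterial control scale to -0.60, and the call was lost in 1 of them, without wild type pool 3 (-0.60, adjusted p 0.0525). Measured against Krt18 on the same array, both as log2(signal + 80.0), so that a scaling of the array cancels except for the 80.0 added, Krt7 differed by -0.73 between groups, and the brighter and dimmer probe sets of Krt19 by 0.48 and 1.005, each without overlap. Krt7 and Krt19 thus lay on opposite sides of Krt18.

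The membrane proteins that mark luminal cells showed the same split between called and uncalled members. Epcam, an adhesion protein of nearly all simple epithelia, had 2656.7, 2698.0 and 2462.0 in wild type and 3161.9, 2620.3 and 3196.0 in LH transgenic pools. The difference was 0.19 with an interval from -0.11 to 0.49 (adjusted p 0.347, limma). E-cadherin Cdh1 had 1015.1, 1132.9 and 989.5 in wild type and 1056.7, 1091.3 and 945.2 in LH transgenic pools, which overlapped throughout. Its difference was -0.02 with an interval from -0.34 to 0.30 (adjusted p 0.944, limma), and it was called lower only on the bacterial control scale (-0.66).

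**Figure D2:**
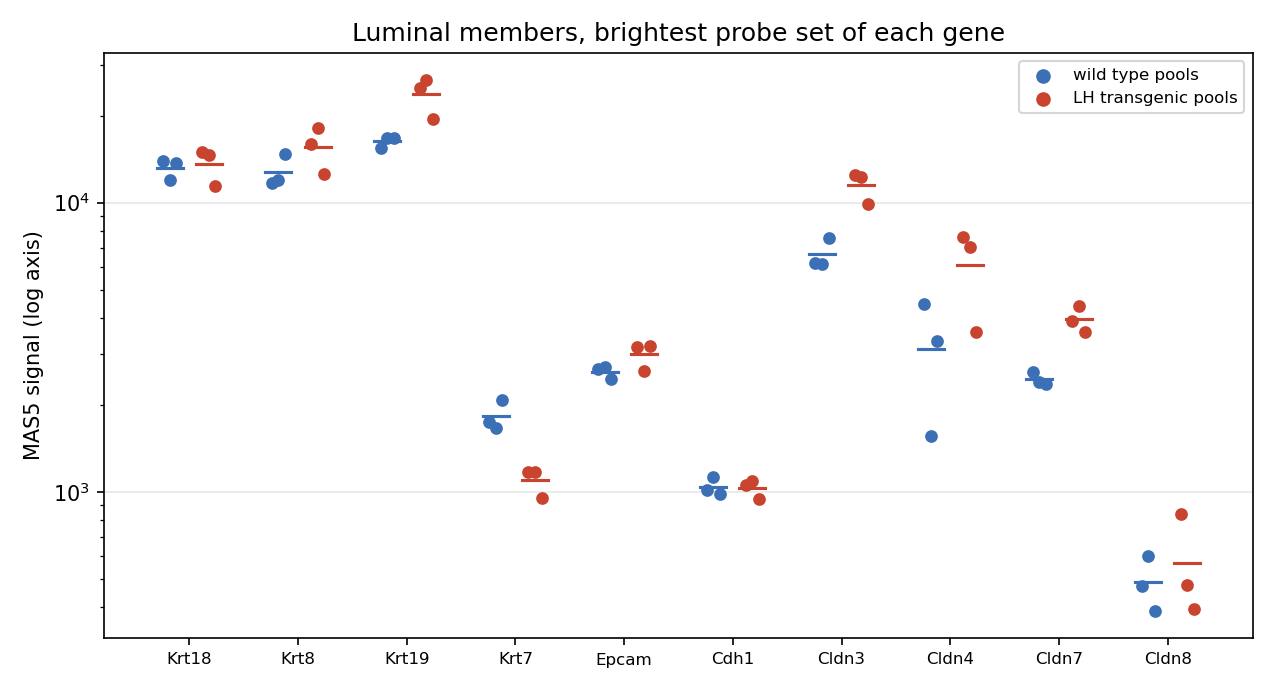
MAS5 signal on a log axis for the brightest probe set of each of 10 luminal members, with a point for each pool and a bar at each group mean. The groups are apart for Krt19, Krt7, Cldn3 and Cldn7 and overlap for Krt18, Krt8, Epcam, Cdh1, Cldn4 and Cldn8, and LH transgenic pool 3 is the lowest of its group for Krt18, Krt8, Krt19, Krt7, Cdh1, Cldn3, Cldn4, Cldn7 and Cldn8.

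Of the luminal claudins, Cldn3 and Cldn7 were higher in the LH transgenic glands on the deposited scale, and Cldn4 and Cldn8 were not called. Cldn3, a sealing claudin of mammary epithelium, had 6207.2, 6144.3 and 7535.0 in wild type and 12475.4, 12276.2 and 9869.7 in LH transgenic pools for its brighter probe set. No pools of the groups overlapped. The ratio of the mean signals was 1.74 and the log2 difference 0.79 (SE 0.14, adjusted p 0.00464, limma), but 0.11 with no call on the bacterial control scale, and 0.56 with the muscle covariate (adjusted p 0.0612). The dimmer Cldn3 probe set, of the f kind, had 512.5, 651.2 and 583.7 against 824.1, 833.6 and 1031.4. It was called as well (0.56, adjusted p 0.0424, limma), a call lost whichever of the 6 arrays was left out and turned to -0.06 on the bacterial control scale.

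Cldn7, a claudin found along the sides of epithelial cells, had 2593.2, 2403.9 and 2363.4 in wild type and 3911.6, 4408.6 and 3588.9 in LH transgenic pools. The wild type pools were tightly grouped and all below the LH transgenic pools. The mean rose from 2454 ± 123 to 3970 ± 413, a log2 difference of 0.67 (SE 0.13, adjusted p 0.00654, limma), which was -0.00056 on the bacterial control scale. The difference was between 0.60 and 0.74 with any array left out, and 0.56 with the muscle covariate, where the call was lost (adjusted p 0.0659).

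Cldn4, a claudin that limits sodium passage and the gene next to Cldn3 on chromosome 5, varied far more between pools. It had 4475.1, 1566.8 and 3330.8 in wild type and 7640.1, 7009.7 and 3561.8 in LH transgenic pools, so that LH transgenic pool 3 lay below wild type pool 1. The difference of 0.99 had an interval from 0.14 to 1.83 and was not called (adjusted p 0.0933, limma). It was called without LH transgenic pool 3, at 1.33 (adjusted p 0.0327). Cldn8, a claudin of kidney and mammary ducts, had a difference of 0.15 with an interval from -0.45 to 0.75 (adjusted p 0.73, limma). The intervals for Cldn4 and Cldn8 are wide, and neither difference was shown to depart from that of Cldn3.

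The stretches before the starts of Cldn3, Cldn7 and Krt7, which were called, and of Cldn4, the uncalled neighbour of Cldn3, are shown to set their sequences side by side. The 250 bases before the RefSeq start are given from RefSeq in GRCm38.p6, where 19 of the 35 tested genes had an entry. The array files name no build, and no position of a probe set is given. Capitals mark matches on either strand to the letters GGGCGG (GC box, bound by Sp1 family factors), TGANTCA (AP-1) and TTCNNNGAA (the GAS element bound by STAT factors, which carry the prolactin signal). Cldn7 has 2 entries, of which the second, the 1 with matches, is shown.
Cldn3, chr5:134985964-134986213, strand plus: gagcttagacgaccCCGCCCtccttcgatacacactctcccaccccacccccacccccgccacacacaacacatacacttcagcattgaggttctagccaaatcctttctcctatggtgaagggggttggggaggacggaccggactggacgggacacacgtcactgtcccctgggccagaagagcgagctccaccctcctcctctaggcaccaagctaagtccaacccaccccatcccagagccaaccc
Cldn4, chr5:134946935-134947184, strand minus: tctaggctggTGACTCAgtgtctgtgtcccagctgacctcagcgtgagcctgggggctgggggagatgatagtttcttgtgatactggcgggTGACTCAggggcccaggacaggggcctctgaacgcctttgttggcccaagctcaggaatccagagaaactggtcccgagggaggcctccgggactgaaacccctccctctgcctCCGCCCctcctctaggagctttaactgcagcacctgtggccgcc
Cldn7, chr11:69965171-69965420, strand plus: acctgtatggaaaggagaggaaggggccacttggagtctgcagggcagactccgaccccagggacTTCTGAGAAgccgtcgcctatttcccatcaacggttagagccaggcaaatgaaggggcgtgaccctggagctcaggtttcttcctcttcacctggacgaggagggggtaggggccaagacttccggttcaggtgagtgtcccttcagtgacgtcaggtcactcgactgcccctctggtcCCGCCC
Krt7, chr15:101412153-101412402, strand plus: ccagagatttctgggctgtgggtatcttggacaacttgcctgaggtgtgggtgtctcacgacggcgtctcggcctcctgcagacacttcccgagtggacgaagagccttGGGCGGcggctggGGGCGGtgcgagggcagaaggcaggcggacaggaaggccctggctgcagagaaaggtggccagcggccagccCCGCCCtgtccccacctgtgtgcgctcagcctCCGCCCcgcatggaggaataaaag

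Cldn3 has 1 GC box match and no AP-1 or GAS match in this window, although it neighbours Cldn4, which has 1 GC box match and 2 AP-1 matches. Of the Cldn7 entries the one shown has 1 GC box and 1 GAS match and the other has 0 of each. Krt7 has 4 GC box matches. The entries of Krt36, which was called, and of Krt18 and Krt8, which were not, are not shown and have no GC box, AP-1 or GAS match. Over all 32851 promoters of this length, 32.7% hold a GC box match, 6.75% an AP-1 match and 7.02% a GAS match. Of 21 promoters of tested member genes, 10, 1 and 1 do. The AP-1 promoter is that of Cldn4 and the GAS promoter is the Cldn7 entry shown. A match describes these letters alone.

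Of the 12 luminal probe sets tested (10 genes), 5 were called higher and 1 lower (50%, against 21.3% over all probe sets tested). The 5 were 2 probe sets of Krt19, 2 of Cldn3 and 1 of Cldn7, so the share by probe set counts some genes more than once. Their median was 0.40 on the deposited and -0.29 on the bacterial control scale. The 10 genes were placed in this class by what they are known for, and all 10 had a tested probe set. Luminal markers outside the membership also moved in both directions. Of 17 tested, 6 were higher and 3 lower, with a median of 0.55 on the deposited scale and -0.12 on the bacterial control scale. Over all probe sets tested, 10.5% were called higher and 10.8% lower. The transcription factor genes Ehf (1.51) and Elf5 (1.21), the surface protein gene Cd24a (1.03), the casein gene Csn3 (0.99), Spint1 (0.71) and Esrp1 (0.55) were higher. On the bacterial control scale these were 0.88 for Ehf, 0.53 for Elf5, 0.34 for Cd24a, 0.31 for Csn3, 0.046 for Spint1 and -0.12 for Esrp1. Prom1 (-1.68), the transcription factor gene Foxa1 (-1.23) and Aldh1a3 (-0.97) were lower. The summed signal of the 19 luminal markers measured was 102301 to 160934 in wild type and 223459 to 260632 in LH transgenic pools. Their part in the rise of the claudins and Krt19 was not tested. In pooled tissue RNA, more cells of a type and more RNA per cell cannot be told apart.

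Basal members were mostly too dim to test. Krt14, the type I keratin of basal cells, had 91.6, 28.6 and 161.4 in wild type and 42.5, 43.8 and 29.2 in LH transgenic pools. Its partner Krt5 had 45.8, 41.7 and 43.5 against 119.5, 57.3 and 45.2. The highest signal was 23.4 for Krt15 and 71.8 for the desmosomal cadherin Dsc3. All 4 were under the filter. Basal and myoepithelial markers outside the membership were measured above the filter in 15 of 15 genes, among them Acta2, Myh11 and Trp63. Of these 15, the smooth muscle actin gene Acta2 was higher (0.66, but -0.02 on the bacterial control scale). Lgals7 and Sparc were lower (-1.57 and -0.73), and the median of the 15 was 0.02. Among all probe sets tested, 10.5% were called higher and 10.8% lower. P-cadherin Cdh3 had 1028.6, 1184.7 and 1150.0 in wild type and 1478.3, 1351.4 and 1152.4 in LH transgenic pools. LH transgenic pool 3 lay among the wild type pools, and the difference was 0.22 with an interval from -0.11 to 0.56 (adjusted p 0.318, limma).

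Krt17, a keratin of basal cells and of wounded or hyperproliferating epithelium, was measured by 3 probe sets that disagreed. The probe set of the r kind had 413.7, 324.5 and 280.7 in wild type and 787.3, 690.5 and 666.2 in LH transgenic pools and was called higher (0.93, SE 0.19, adjusted p 0.00892, limma). This call was lost on the bacterial control scale (0.34, adjusted p 0.325) and with the muscle covariate, where the difference was 0.84 (adjusted p 0.0852). The probe set of the i kind had 637.6, 396.6 and 1213.2 against 237.0, 261.1 and 157.7 and was called lower (-1.37, SE 0.34, adjusted p 0.02). Neither pair of groups overlapped. The LH transgenic mean of the i probe set was 218.6, under the filter of 336.0, so it was tested only through its wild type signals. Wild type pool 3 was high in the i probe set, and without that pool the difference was -0.99 and no longer called (adjusted p 0.0642). The call was also lost without wild type pool 1, LH transgenic pool 1 or LH transgenic pool 3, and with the muscle covariate (-1.75, adjusted p 0.0502). The third, of the f kind, had 667.8, 592.4 and 1208.1 against 520.7, 801.9 and 535.8, which overlapped, and a difference of -0.33 (adjusted p 0.418). The suffixes r and i mark probe sets for which the array's design rules were relaxed or incomplete. No direction can be given for Krt17 as a gene.

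**Figure D3:**
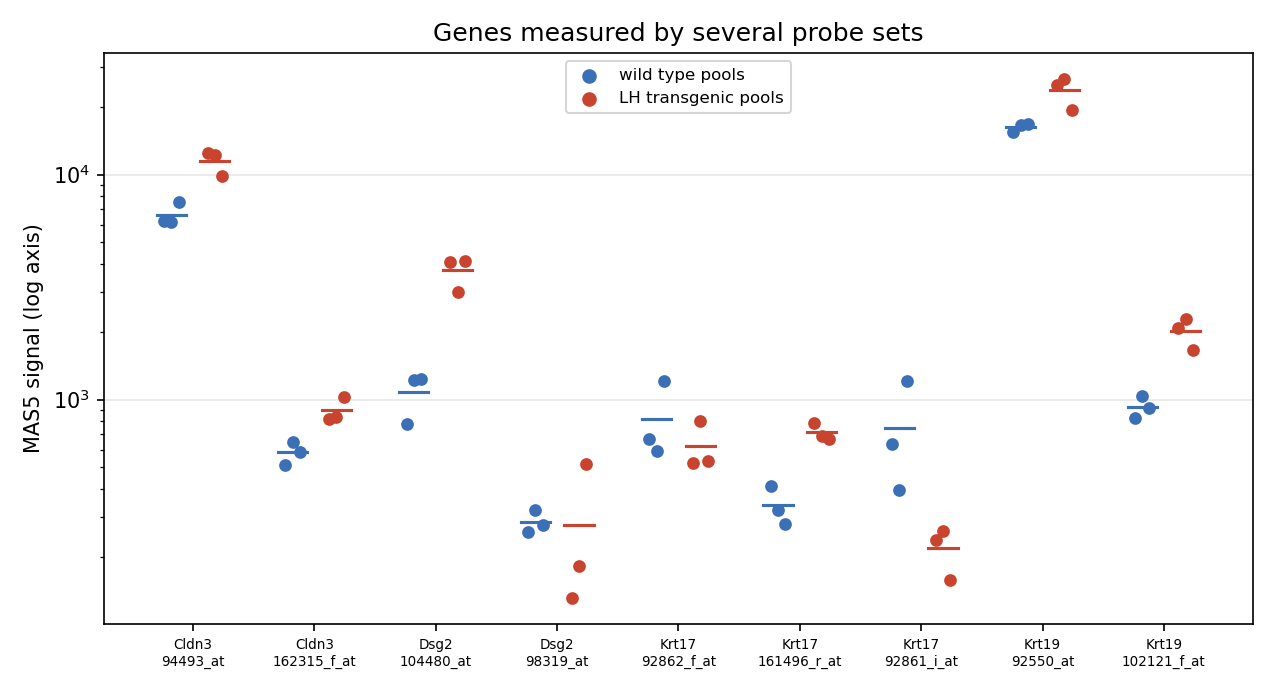
MAS5 signal on a log axis for all probe sets of Cldn3, Dsg2, Krt17 and Krt19, with a point for each pool and a bar at each group mean. The probe sets of Cldn3 and of Krt19 move the same way, while those of Krt17 and of Dsg2 do not.

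Desmosome genes had a single call on the deposited scale, among 9 probe sets tested (11.1%, against 21.3% over all probe sets tested). Dsg2, the desmosomal cadherin of simple epithelia, had 781.1, 1219.3 and 1230.8 in wild type and 4079.1, 3021.7 and 4144.1 in LH transgenic pools. The lowest LH transgenic pool was well above the highest wild type pool. The mean rose from 1077 ± 256 to 3748 ± 630, a ratio of 3.48 and a log2 difference of 1.74 (SE 0.20, adjusted p 0.000645, limma). The call held in all 17 other settings, with a difference between 1.08 on the bacterial control scale and 1.88. The other Dsg2 probe set was under the filter. It had 257.7, 322.5 and 277.5 in wild type and 131.5, 181.8 and 516.5 in LH transgenic pools, so the rise rests on a single probe set.

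The partners of Dsg2 in the desmosome were not called on the deposited scale. Plakoglobin Jup, which also binds E-cadherin, had 3375.5, 5892.3 and 5606.7 in wild type and 6926.4, 6058.0 and 4595.2 in LH transgenic pools, a difference of 0.26 with an interval from -0.25 to 0.77 (adjusted p 0.458, limma). Desmoplakin Dsp, the link to keratin filaments, had 2040.9, 1497.3 and 2486.6 against 1716.8, 1630.1 and 1731.6, a difference of -0.21 with an interval from -0.61 to 0.20. Both pairs of groups overlapped. Among the plakophilins, Pkp4 had 5657.6, 4724.0 and 4798.5 in wild type and 3281.3, 3512.5 and 4711.0 in LH transgenic pools. It did not overlap but missed the threshold (-0.41, adjusted p 0.105, limma). Pkp4 was called lower without LH transgenic pool 3 (-0.56), with array weights (-0.50) and on the bacterial control scale (-1.08), and had -0.098 with the muscle covariate. Both tested probe sets of Pkp1, a plakophilin of stratified epithelium, missed the threshold as well. The first had 549.4, 477.5 and 613.9 in wild type and 375.7, 318.0 and 378.9 in LH transgenic pools. Its groups did not overlap (-0.52, adjusted p 0.0807, limma). It was called lower with eBayes without a trend and on the bacterial control scale. The second, of the f kind, had 1205.9, 1105.9 and 1160.3 against 989.7, 1116.1 and 788.5, which overlapped (-0.26, adjusted p 0.291). Pkp2, a plakophilin of simple epithelium and heart, had 3774.1, 3944.8 and 4817.6 against 3123.7, 3924.2 and 3459.9 in its f probe set (-0.25) and 1330.5, 1243.0 and 1571.6 against 1231.9, 1232.6 and 1179.4 in an r probe set (-0.17), without a call. Pkp3 differed by 0.06, and by -0.59 on the bacterial control scale. The 9 desmosome probe sets tested were of the desmosomal cadherin, plakophilin, Jup and Dsp families. Of these, 1 was called (11.1%, against 21.3% over all probe sets tested). Groups did not overlap for 4 of the 9, against 40.4% over all probe sets tested. On the bacterial control scale the median of the 9 was -0.87. Called lower on that scale were Dsp (-0.87), both tested probe sets of Pkp1 (-1.09 and -0.90) and of Pkp2 (-0.92 and -0.82), Pkp3 and Pkp4. Jup was not called there (-0.42). The remaining desmosomal cadherins, Dsc1, Dsc2 and Dsc3, had highest signals of 144.7, 248.3 and 71.8.

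Keratins of skin and hair were described as a check for skin in the samples and because some probe sets were bright. Of 7 probe sets tested in the class listed as skin (Krt2, Krt4, Krt6a, Krt6b, Krt10 and Pkp1), 0 were called by limma, against 21.3% of all probe sets tested. That class also holds genes of other stratified epithelia, such as Krt4, whose difference of -0.05 was the median of the 7. Of the 7, 3 had an unadjusted p under 0.05 and 3 did not overlap, against 40.4% without overlap over all probe sets tested. Krt6a and Krt6b, keratins of activated epidermis, had differences of 0.43 and 0.35 (adjusted p 0.118 and 0.132) and turned to -0.19 and -0.28 on the bacterial control scale. A second Krt6a probe set, under the filter, had 625.0 in LH transgenic pool 1 and between 65.9 and 96.2 in the other 5 pools. Krt10, a keratin of differentiating epidermis, had 393.6, 457.8 and 561.4 in wild type and 631.0, 458.5 and 639.3 in LH transgenic pools (0.25, adjusted p 0.42, limma). Its partner Krt1 had a highest signal of 295.4, in wild type pool 3, and the other pools were between 65.4 and 160.6. Of 19 skin and hair genes outside the membership, 5 were tested and 0 called by limma, with 1 at an unadjusted p under 0.05 and a median of 0.29. That gene was Sprr2b, a precursor of the epidermal envelope (0.51, unadjusted p 0.018, adjusted p 0.0706, and -0.13 on the bacterial control scale). Their summed signal was 14790 to 20481 in wild type and 17518 to 18472 in LH transgenic pools. Most of it was Sprr1b (0.03). Loricrin (Lor), a protein of the epidermal surface, had 634.8, 994.6 and 897.1 in wild type and 1183.5, 1062.5 and 863.6 in LH transgenic pools. These overlapped (0.29, adjusted p 0.332, limma). Calm4 and Hr, also above the filter, differed by 0.32 and 0.01. Involucrin (Ivl), another such surface protein, was under the filter. It had 18.2, 18.6 and 16.8 against 29.3, 46.3 and 109.9, without overlap, and all but the 109.9 lie under 80.0.

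Among the hair keratins, 8 of 21 probe sets were tested and 2 called, both higher (25%, against 21.3% over all probe sets tested). All 8 were above 0, with a median of 0.42 that became -0.17 on the bacterial control scale. Krt36, a type I keratin of hair and nail, had the increase next to that of Dsg2 on the log2(signal + 80.0) scale, and the higher of both by the ratio of mean signals (3.54 against 3.48). It had 469.8, 533.8 and 541.4 in wild type and 1858.8, 2323.8 and 1288.5 in LH transgenic pools. The ranges were far apart, and the mean rose from 515.0 ± 39.3 to 1824 ± 519, a difference of 1.64 (SE 0.21, adjusted p 0.000981, limma). Its call held in all 17 other settings, from 1.01 on the bacterial control scale to 1.86. Krt36 had this probe set alone, of the relaxed r kind, and its neighbours in the type I keratin cluster, Krt35 and Krt13, were not called or were under the filter. Krt33b, another hair keratin, had 305.9, 348.2 and 352.0 in wild type and 564.8, 511.5 and 568.1 in LH transgenic pools, and its mean rose from 335.4 ± 25.6 to 548.1 ± 31.8 (0.60, SE 0.18, adjusted p 0.0433, limma), a call lost in 9 of 16 other settings, including with any array left out, and 0.02 on the bacterial control scale. The wild type mean of 335.4 lay under the filter of 336.0, so this probe set was tested only through its LH transgenic signals. The second Krt33b probe set, of the f kind, was under the filter at 284.9, 193.9 and 248.6 against 372.2, 198.4 and 97.8, which overlapped. Hair keratins are close copies of each other, and a probe set can report more than the gene it is named for.

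By filament type, 5 of 11 type I keratin probe sets were called higher and 1 lower, with a median of 0.49, and of 10 type II probe sets 0 were called higher and 1 lower, with a median of 0.25. The shares called were 54.5% for type I and 10% for type II, against 21.3% over all probe sets tested. Both probe sets of Krt19, with Krt36, Krt33b and a Krt17 probe set, made up the type I calls above 0. The lower type II call was Krt7. The difference between the types was not tested.

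Of the claudins and cadherins outside the epithelial classes, only Cldn5 and Cdh13 passed the filter, and Cldn5 was called on the deposited scale. The shares over all probe sets tested were 10.5% called higher and 10.8% lower. Cldn5, the claudin of endothelial tight junctions, had 4782.6, 3764.8 and 5489.1 in wild type and 2745.6, 2747.5 and 1764.8 in LH transgenic pools. No pools overlapped, and the mean fell from 4679 ± 867 to 2419 ± 567 (-0.94, SE 0.20, adjusted p 0.0109, limma). The call held in all 17 other settings, from -1.61 on the bacterial control scale to -0.73. Endothelial markers fell beside it in 8 of 10 tested genes and none rose, with a median of -0.86, and Pecam1 (0.12) and Tek (-0.64) were not called. The summed signal of these 10 was 32961 to 38933 in wild type and 15242 to 18201 in LH transgenic pools, and its part in the fall of Cldn5 was not tested. Cdh13, an anchored cadherin of vessel walls, had 841.7, 646.8 and 605.3 in wild type and 247.1, 769.0 and 482.4 in LH transgenic pools. LH transgenic pool 2 lay among the wild type pools, and the difference of -0.52 was not called (adjusted p 0.278, limma). Cdh13 was called lower on the bacterial control scale (-1.13).

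Tjp1, the scaffold protein ZO-1 under tight junctions, had 5581.0, 6411.0 and 6046.1 in wild type and 4636.5, 5369.7 and 6549.9 in LH transgenic pools. These overlapped, and the difference was -0.13 with an interval from -0.47 to 0.20 (adjusted p 0.564, limma). Tjp1 was called lower on the bacterial control scale (-0.81). Occludin Ocln, a membrane protein of the same junctions, was under the filter, with 276.1, 168.3 and 63.9 in wild type and 533.4, 340.0 and 253.2 in LH transgenic pools, which overlapped slightly. Without the filter its difference of 0.92 was not called (adjusted p 0.167, limma).

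No probe set of 32 of the 67 genes passed the filter, and their highest signal was 533.4, that of Ocln. They include Krt1, Krt12, Krt13, Krt16, Krt20 and Krt77 among keratins, Cldn1, Cldn2, Cldn6 and Cldn11 among claudins, and the cadherins Cdh2, Cdh4, Cdh6, Cdh8, Cdh9, Cdh10, Cdh11, Cdh15 and Cdh16. N-cadherin Cdh2, of nerve and mesenchyme, had 300.8, 286.9 and 340.1 in wild type and 262.0, 215.0 and 286.2 in LH transgenic pools, and Cdh11, of mesenchymal cells, had 177.4, 95.2 and 240.2 against 213.4, 79.8 and 134.2. Cldn1, a sealing claudin of epidermis, had 211.1, 388.9 and 165.0 against 322.0, 203.8 and 335.8 in its brighter probe set. The groups overlapped for Cdh11 and Cldn1 and lay apart for Cdh2, whose difference without the filter was -0.22 (adjusted p 0.55, limma). Of the 57 probe sets under the filter, 16 stayed below 80.0 on every array. Cldn6, an embryonic claudin, was the only 1 of the 57 called when all probe sets were fitted. It had 179.1, 148.7 and 158.1 in wild type and 42.6, 45.1 and 51.7 in LH transgenic pools (-0.93, SE 0.16, adjusted p 0.00979, limma without the filter). These groups did not overlap, though the LH transgenic signals lie under 80.0.

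Partner genes of these junctions and filaments were counted by the brightest probe set of each gene. The shares to set beside these counts are 10.5% called higher and 10.8% lower over all probe sets tested. Of 7 tested adherens junction partners 0 rose and 2 fell, the catenin gene Ctnnd2 (-0.67) and the actin-binding gene Lima1 (-0.63), while the catenins that bind E-cadherin had differences of -0.06 (Ctnna1), 0.13 (Ctnnb1) and -0.18 (Ctnnd1) and were not called. Of 15 tight junction and polarity partners 2 rose and 2 fell. The polarity genes Crb3 (0.62) and Llgl2 (0.68) rose, with -0.03 and 0.01 on the bacterial control scale, and the scaffold gene Mpdz (-1.20) and Amotl2 (-0.71) fell. Of 10 desmosome and hemidesmosome genes 3 rose and none fell. These were the hemidesmosome integrin genes Itga6 (1.26) and Itgb4 (0.59, but -0.07 on the bacterial control scale) and the laminin chain gene Lamb3 (1.24), while the plakin genes Plec (-0.25) and Ppl (-0.10) were not called. Of 5 other intermediate filament genes 1 fell, nestin Nes (-0.63), and desmin Des had -0.73 without a call. These calls were lost in 0 to 8 of the other settings, and only Mpdz and Itga6 kept theirs in all of them.

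Set against Krt18 on the same array, 11 of the 12 called member probe sets did not overlap between groups, and 3 of the 28 others. The counts were the same against Epcam. The references were chosen after their values were seen, and the called probe sets by their difference on the same arrays, so these counts are a description and support no call. The overlapping ones were the dimmer probe set of Cldn3 against Krt18 and the brighter probe set of Krt19 against Epcam. Against Krt18 the group difference was 1.70 for Dsg2, 1.60 for Krt36, 0.75 for the brighter Cldn3 probe set, 0.63 for Cldn7 and -0.98 for Cldn5. Such a ratio shows unequal change and not that Krt18 or Epcam was constant.

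**Figure D4:**
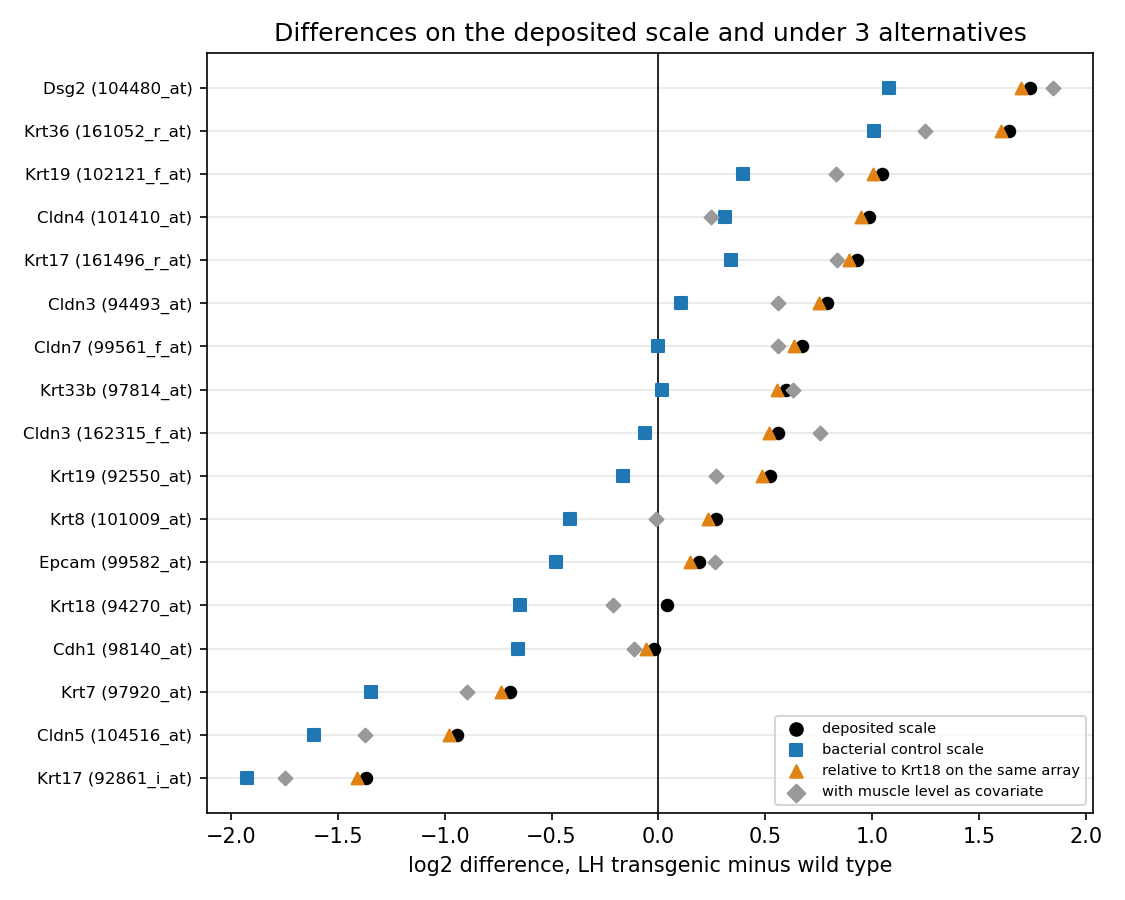
Log2 differences, LH transgenic minus wild type, for the called member probe sets and 5 uncalled ones on the deposited scale, scaled to the bacterial controls, relative to Krt18 on the same array, and with muscle marker signal as a covariate. Dsg2 and Krt36 lie above 0 and Krt7, Cldn5 and the i probe set of Krt17 below 0 under each, while Cldn7, the dimmer probe set of Cldn3 and the brighter probe set of Krt19 cross 0 on the bacterial control scale and Krt33b lies at 0.02 there.

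Other cell types moved with the groups. Beside the counts that follow, 10.5% of all probe sets tested were called higher and 10.8% lower. Adipocyte markers fell in 9 of 11 tested genes and none rose (median -1.41), with a summed signal of 157467 to 181098 in wild type and 78431 to 89454 in LH transgenic pools. Skeletal muscle markers fell in 5 of 12 and none rose (median -1.30), and their summed signal was 102099 to 117021 in wild type and 21949 to 92352 in LH transgenic pools. Muscle was uneven within the LH transgenic group. The mean muscle level, centred over the arrays, was -1.49 and -1.07 in LH transgenic pools 1 and 2, 0.62 in pool 3 and between 0.53 and 0.77 in wild type pools, and pool 3 was also the pool of its group with the lowest signals of most luminal members. Without pool 3, 8 member probe sets were called higher and 3 lower, but these were not all the probe sets called with all 6 arrays. Cldn4 and Pkp4 were newly called. The dimmer Cldn3 probe set, Krt33b and the i probe set of Krt17 lost their calls. Of 5 nerve and Schwann cell genes Sox10, which is also made in mammary epithelium, rose (0.76) and Pmp22 fell (-1.40), with a summed signal of 13671 to 15193 and 13512 to 15662. The part of these cell types in the members' differences was not tested.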

How the data were processed

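RNA was measured on 6 Affymetrix arrays, 3 wild type and 3 LH transgenic, each with RNA of a pool of 3 mice. The deposited values are 1 linear intensity for each probe set on each array. The submitters' processing notes name MAS5 as the software, and its version, detection calls and the genome build were not given in sources used here. Values were used as deposited. Pools of a group held different mice, and no label gives a pairing or a batch. The number of arrays limits the precision.

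Probe sets with a single gene in the platform annotation were named (10833 of 12488, with 396 on several genes, 1193 on none and 66 controls left out). The identifiers of all 98 members were found in a GRCm38.p6 gene table, and 0 symbols changed. The test was limma 3.58.1 in R 4.3.3 (lmFit, eBayes with a trend, two-sided, no covariate) on log2(signal + 80.0), the 20th percentile of all values, for probe sets averaging 336.0 (40th percentile) or more, with Benjamini-Hochberg adjustment over all of them. It was checked on simulated data. Alternatives were quantile normalization, median centring, a bacterial control scale, pseudocounts of 31.6 and 325.5, no filter, a filter at 933.0, eBayes without a trend, robust eBayes, array weights, the mean of 14 muscle marker probe sets as a covariate, and each array left out. Members and gene lists were chosen with earlier results of these data known. Named were all called members, a fixed set of keratins, claudins, cadherins and junction genes where present, and called partner genes; others by their highest signal. Cldn6, Pkp4 and the second Krt6a probe set were picked after their values were seen.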

Additional observations from a re-analysis of the deposited data

How the results depend on the processing

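Of the 12 called member probe sets, 3 (Dsg2, Krt36 and Cldn5) kept their call in every alternative run. Over all alternatives, 161 of 200 comparisons for called members kept direction and call, and 39 lost the call, 3 of them with the sign turned. The 9 probe sets called higher became 2 on the bacterial control scale and 3 with the muscle covariate, and the 3 called lower became 18 on the bacterial control scale. With an array left out, 6 to 8 were higher and 1 to 3 lower, the 1 without wild type pool 3. All probe sets called numbered 1586, against 3999 on the bacterial control scale, 861 with the muscle covariate and 941 to 1641 with an array left out. On the bacterial control scale the sign turned for the dimmer Cldn3 probe set (-0.061), Cldn7 (-0.00056) and the brighter Krt19 probe set (-0.16), and Krt18, Krt86 and Pkp3 were called lower there (-0.65, -0.60 and -0.59). The other new calls there were also lower. They were Cdh1, Cdh13, Dsp, Tjp1, Pkp4, both tested probe sets of Pkp1 and of Pkp2, Krt2, Krt4 and the f probe set of Krt17. The causes were not tested. The fit with the covariate has 3 residual degrees of freedom against 4, and the part of this in the lost calls was not tested either. Differences of dim probe sets, such as those of Krt14 and Krt5, cannot be judged at these signals.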
